A study of Homo sapiens with 30 samples.

Results

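SEC61A1, TRRAP, EIF4G2, ABL1 and MAP1LC3B are 5 well expressed genes whose transcripts were far less abundant with the antisense oligonucleotide (ASO) called ASO10 than with ASO2 in NGP or SK-N-BE(2)c neuroblastoma cells. They were picked by name from the group means of these libraries, as candidates for an action that ASO10 has of its own, and they are 5 of the 57905 genes in each of these tables and of the 62710 genes in the table of a further line, IMR32. Levels in NGP cells and SK-N-BE(2)c therefore chose the genes and are described without a test. IMR32, which never received ASO10, is not part of the rule, so the genes were tested there. All 5 passed the filter of a mean normalized count of at least 10 in all 3 tables.

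The series covers 30 RNA sequencing libraries from 3 established neuroblastoma lines, each transfected with 1 ASO at 100 nM by lipofection. NGP and SK-N-BE(2)c were given ASO2, ASO10 or a negative control ASO (NCA), with 3 libraries per group, and IMR32 was given ASO1, ASO2 or NCA, with 4 libraries per group. ASO1, ASO2 and ASO10 are each aimed at NESPR, a long non-coding RNA that was not analysed here, and every group, controls included, carries an ASO and the transfection agent. The time to harvest and the sequences of the ASOs are not given in the sources used here, and whether libraries of a group are separate cultures is not stated either, so p-values measure the spread between these libraries only. A replicate number does not mark a known batch, and the kit used for each library (stranded total RNA or stranded mRNA) is not stated.

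Recovered reads per library ran from 9393587 to 15060356, with size factors from 0.811 to 1.20, so that a normalized count is close to a read count. In NGP, genes with a read numbered 23722 to 23934 with ASO10, 21253 to 21920 with ASO2 and 21615 to 22030 with NCA. In SK-N-BE(2)c they numbered 21518 to 21815 with ASO10, 19235 to 20236 with ASO2 and 19939 to 20327 with NCA. The part of this difference in rises with ASO10 of genes with few reads was not tested. Of the 10 adrenergic markers fixed for these lines, which include HAND2, GATA3, DBH and MYCN, all 10 had a mean of at least 10 in each line, while the summed immune markers (PTPRC, CD68, CD3E) reached at most 15.3 normalized counts in any library and KRT5 and CD3E were at 0 in every NGP and SK-N-BE(2)c library. The lowest adrenergic markers in IMR32 were TH, at 20.1 to 33.0 normalized counts, and GATA2, at 164 to 284. The summed adrenergic markers ran from 76535 to 79177 in NGP with ASO10, 76280 to 81238 with ASO2 and 83983 to 86273 with NCA, and in SK-N-BE(2)c from 48187 to 50581, 47588 to 51699 and 60076 to 66853. MYCN alone had 40482 to 50133 normalized counts across the NGP libraries and 18322 to 32304 across those of SK-N-BE(2)c. It is thus a large part of these sums, which do not show how the other adrenergic markers moved. The 6 fibroblast or mesenchymal markers summed to 664 to 715 in NGP with ASO2, 407 to 498 with ASO10 and 439 to 470 with NCA, and to 873 to 945, 687 to 856 and 867 to 927 in SK-N-BE(2)c. In IMR32 they summed to 1195 to 1309 with ASO2, 1024 to 1114 with NCA and 921 to 1055 with ASO1. COL1A1 alone had 630 to 962 normalized counts across the IMR32 libraries. The part of these markers in the results was not tested, and in bulk RNA fewer cells of a type and less RNA per cell cannot be told apart. For NGP as for SK-N-BE(2)c, the column of control library 1 is spelled differently from those of libraries 2 and 3, although the titles put all of them in a single control group.

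These genes act in different parts of the cell. SEC61A1 forms the channel of the SEC61 translocon, through which ribosomes feed secretory and membrane proteins into the endoplasmic reticulum (ER). TRRAP is a very large scaffold protein of the SAGA and TIP60 histone acetyltransferase complexes and is recruited by MYC family proteins. It belongs to the PIKK family, whose other members are active kinases, but has no kinase activity of its own. EIF4G2, also called DAP5, is a relative of the initiation scaffold eIF4G1 that lacks its binding site for the cap-binding protein eIF4E. ABL1 is a tyrosine kinase that works on the cytoskeleton and in the DNA damage response, and MAP1LC3B is an ATG8 family protein that is attached to lipid on the growing autophagosome and serves as its usual marker. An ASO pairs with RNA by base complementarity, and gapmer ASOs direct RNase H to cut the paired RNA, which lowers its level.

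Because the 5 transcripts moved together, their promoters and messenger RNAs were searched for letters in common. RefSeq promoter windows (250 bases before to 50 after a start site, GRCh38.p14) were found for 4 of the 5 genes: 2 windows each for SEC61A1 and EIF4G2 and 1 each for ABL1 and MAP1LC3B. TRRAP is named only. The window with a GC box is shown for each gene, 5′ to 3′ on the gene's strand, with every GGGCGG on either strand (read as CCGCCC on the opposite strand) in capitals. They are chr3:128052187-128052486 (+) for SEC61A1, chr11:10808877-10809176 (-) for EIF4G2, chr9:130835004-130835303 (+) for ABL1 and chr16:87392086-87392385 (+) for MAP1LC3B.
SEC61A1: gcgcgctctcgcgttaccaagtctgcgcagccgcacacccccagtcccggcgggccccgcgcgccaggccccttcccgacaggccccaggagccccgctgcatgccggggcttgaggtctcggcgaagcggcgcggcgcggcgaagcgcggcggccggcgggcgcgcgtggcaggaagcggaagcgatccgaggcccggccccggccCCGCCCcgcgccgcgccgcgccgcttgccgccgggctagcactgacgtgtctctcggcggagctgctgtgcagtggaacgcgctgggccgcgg
EIF4G2: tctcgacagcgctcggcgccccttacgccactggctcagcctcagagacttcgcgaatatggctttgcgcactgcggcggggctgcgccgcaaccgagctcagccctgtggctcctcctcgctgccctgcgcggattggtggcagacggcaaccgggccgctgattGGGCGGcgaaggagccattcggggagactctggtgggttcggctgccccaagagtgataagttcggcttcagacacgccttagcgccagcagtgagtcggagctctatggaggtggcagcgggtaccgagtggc
ABL1: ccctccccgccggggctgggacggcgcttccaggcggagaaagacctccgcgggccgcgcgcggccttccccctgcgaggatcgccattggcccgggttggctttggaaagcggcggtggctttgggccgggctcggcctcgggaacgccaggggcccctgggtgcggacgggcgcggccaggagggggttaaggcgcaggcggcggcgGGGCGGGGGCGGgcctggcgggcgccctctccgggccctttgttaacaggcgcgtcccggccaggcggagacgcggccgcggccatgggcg
MAP1LC3B: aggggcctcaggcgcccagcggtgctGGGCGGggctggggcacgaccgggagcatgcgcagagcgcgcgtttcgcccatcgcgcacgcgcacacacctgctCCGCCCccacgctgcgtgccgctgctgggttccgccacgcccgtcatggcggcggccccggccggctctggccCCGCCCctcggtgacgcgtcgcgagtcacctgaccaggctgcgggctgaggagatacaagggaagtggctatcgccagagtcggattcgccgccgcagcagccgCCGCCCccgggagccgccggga

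The GC box (GGGCGG) was in a window of all 4 genes, once in SEC61A1 and EIF4G2, at 2 positions in ABL1 and at 4 in MAP1LC3B, and 44.95% of the 35116 RefSeq promoters of this length hold one. The windows shown are GC-rich, at 79.3%, 66%, 78.3% and 75.7% in that order, and the second windows of SEC61A1 and EIF4G2, at 50.3% and 66.3%, had no GC box. CGGAAG, the core bound by ETS factors, was in the window shown for SEC61A1 and in the second window of EIF4G2, which is not shown. It was in 19.46% of all promoters, and CCAAT was in EIF4G2 and ABL1 and in 34.61%. The E-box CACGTG (7.256% of all) had no match in these windows. GCCATNTT, a core bound by YY1, was in EIF4G2 alone and in 6.578% of all promoters. Each motif was searched on both strands, the GC box and CGGAAG can share bases, and the GC box alone was in all 4 genes. The percentages are shares of single promoters, while a gene with 2 windows counts where either holds the motif.

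The messenger RNAs shared no long word. Over the coding transcripts of GENCODE release 29, the longest word present in all 5 genes was 8 bases, and no word of 9 or more bases was. Introns and inexact matches were not searched, and neither was a match to ASO10, whose sequence is not given in the sources used here. The 5 words of that length were AGCAGCAG, CCACTTGG, CCTCCCCC, CTGCCCTG and TTTTGTTT, which were found in 31.45%, 8.235%, 22.23%, 24.41% and 36.43% of 11063 genes tested in NGP as well as SK-N-BE(2)c. Length and base composition also differed among the 5. The longest coding transcript was 2688 bases in MAP1LC3B, 3635 in SEC61A1, 4001 in EIF4G2, 5766 in ABL1 and 12677 in TRRAP, against a median of 3502 over the 11063 genes. Its GC content ran from 43.1% in EIF4G2 (percentile 29.9) to 59.9% in ABL1 (percentile 83.9), and the gene spanned from 12.1 kb in EIF4G2 to 174 kb in ABL1.

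In NGP as in SK-N-BE(2)c, all 5 genes stood in the same order, lowest with ASO10, between with NCA and highest with ASO2, and for every gene the 3 groups did not overlap. In NGP the level with ASO10 was 27.5% (MAP1LC3B) to 46.4% (ABL1) of the NCA level, and the level with ASO2 was 1.23-fold (EIF4G2) to 1.71-fold (MAP1LC3B) that of NCA. In SK-N-BE(2)c the corresponding ranges were 23.3% (MAP1LC3B) to 60.6% (ABL1) with ASO10 and 1.32-fold (EIF4G2) to 2.06-fold (ABL1) with ASO2. Part of the gap between the ASOs thus lay on the ASO2 side. As the median of the 5 genes, on the log2(normalized count + 1) scale used for all differences here, ASO10 minus NCA was -1.35 and ASO2 minus NCA 0.50 in NGP, and -1.23 and 0.58 in SK-N-BE(2)c. The medians over all genes tested were -0.0262 and 0.0090 in NGP and -0.0310 and -0.0161 in SK-N-BE(2)c. Both differences of a line use the same NCA libraries.

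**Figure D1:**
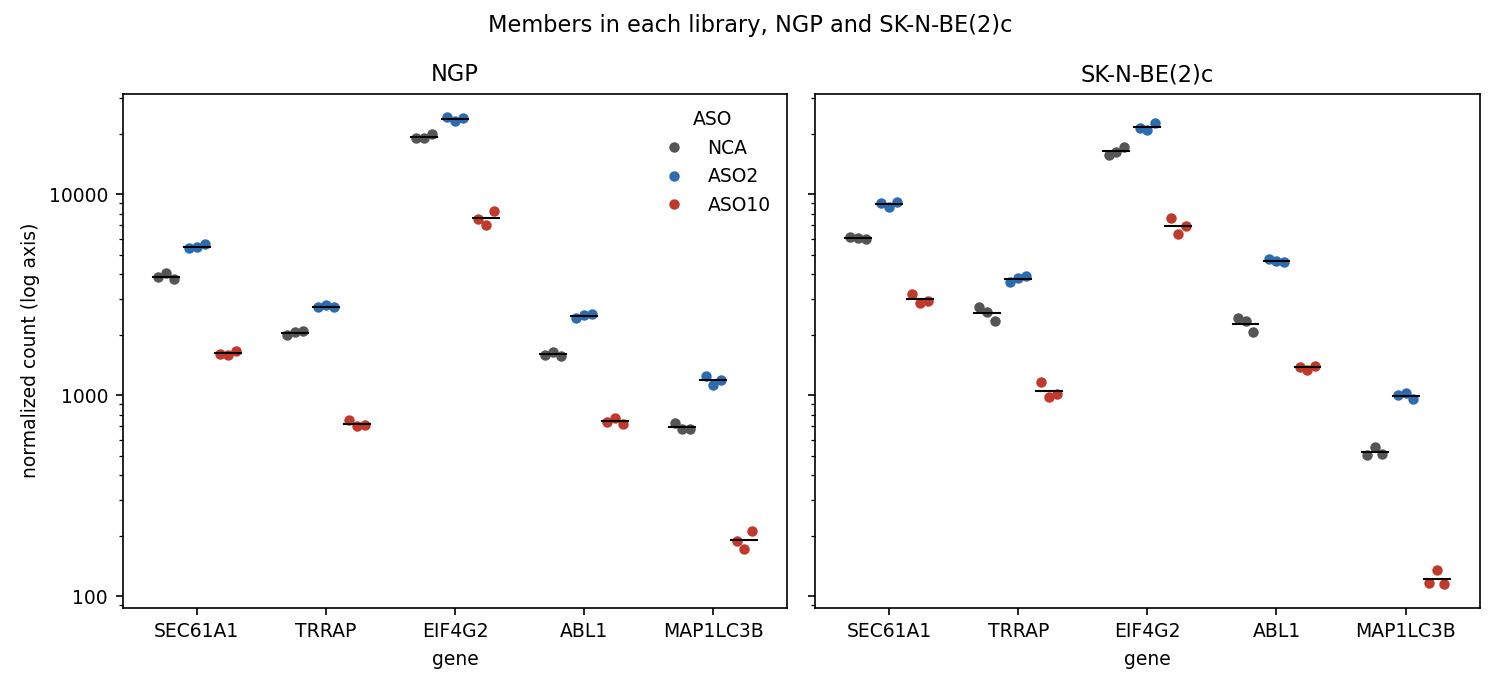
Normalized count (log axis) of the 5 genes in each library of NGP (left) and SK-N-BE(2)c (right), with 3 libraries per ASO as points and their mean as a black line. For every gene the ASO10 libraries lie below the NCA libraries and the ASO2 libraries above them.

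Libraries whose groups do not overlap are common in these lines. With ASO10 all libraries lay below all NCA libraries for 30.5% of the genes tested in NGP cells and 34.3% in SK-N-BE(2)c, and below all ASO2 libraries for 34.1% and 36.1%. With ASO2 all libraries lay above those of NCA for 32.4% and 34.4%. It is the size of the difference that sets the 5 genes apart, and that size is what chose them. Among genes with a mean normalized count of at least 500, 138 of 5560 in NGP (2.48%) and 179 of 5669 in SK-N-BE(2)c (3.16%) had a difference of ASO10 minus ASO2 of -1 or lower, so many more genes than these 5 were far lower with ASO10. MAP1LC3B was the lowest of all in both lines. The mean of at least 500 is taken over all groups of a line, so a high level with ASO2 helps a gene pass. MAP1LC3B had means of 1188 with ASO2, 695 with NCA and 191 with ASO10 in NGP, and 993, 523 and 122 in SK-N-BE(2)c. TRRAP was 5th from the lowest in NGP cells and 12th in SK-N-BE(2)c, SEC61A1 10th and 33rd, ABL1 11th and 16th, and EIF4G2 16th and 26th. Against NCA the ranks from the lowest were less extreme for all 5, at 5 and 3 for MAP1LC3B, 15 and 43 for TRRAP, 27 and 56 for EIF4G2, 41 and 123 for SEC61A1 and 80 and 311 for ABL1.

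**Figure D2:**
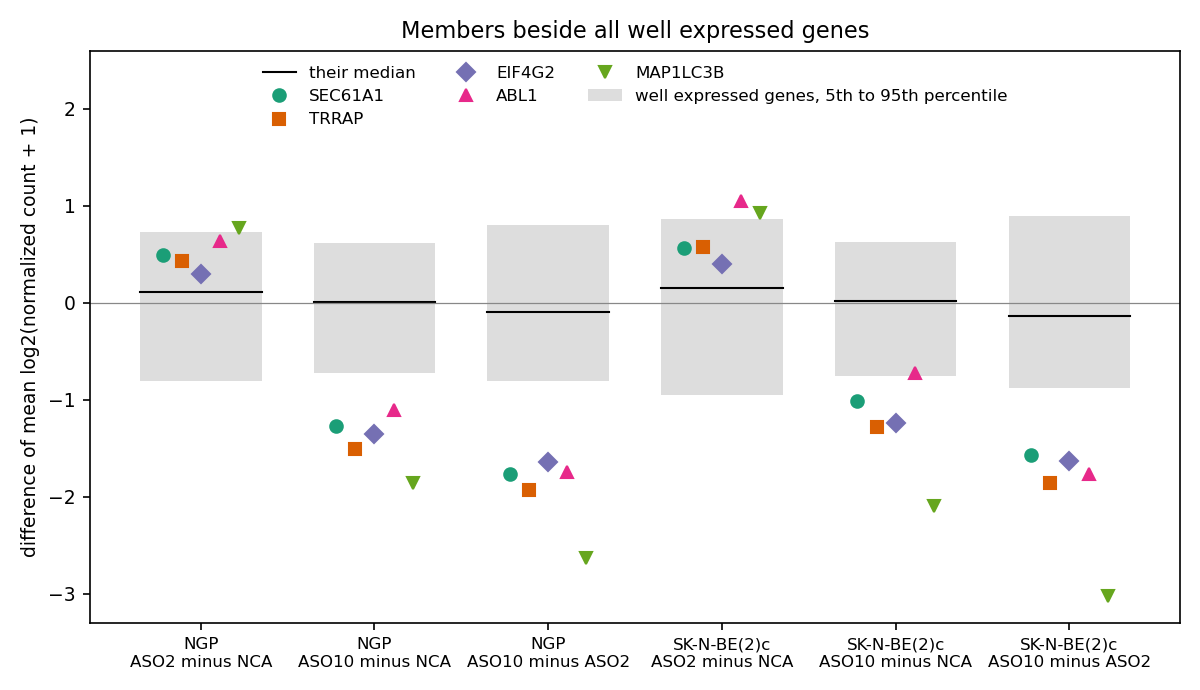
Difference of mean log2(normalized count + 1) between ASO groups for the 5 genes (symbols), beside the 5th to 95th percentile (grey bars) and the median (black lines) of all genes with a mean of at least 500. Below the grey bars lie all 5 genes for ASO10 minus ASO2 in both lines, and all but ABL1 in SK-N-BE(2)c for ASO10 minus NCA.

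SEC61A1 (ENSG00000058262) had normalized counts of 1600, 1587 and 1661 in the NGP libraries with ASO10, 3861, 4049 and 3781 with NCA and 5391, 5459 and 5627 with ASO2. Among the SK-N-BE(2)c libraries it had 3206, 2874 and 2946 with ASO10, 6117, 6056 and 5960 with NCA and 9000, 8674 and 9173 with ASO2. The groups were far apart compared with their spread, at 1616 ± 39.4 (SD, n = 3) against 3897 ± 137 and 5492 ± 121 in NGP. ASO10 was at 41.5% of NCA in NGP cells and at 49.8% in SK-N-BE(2)c, and at 29.4% and 33.6% of ASO2.

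SEC61A2, the paralogue of SEC61A1, rose with both ASOs where SEC61A1 was lower with ASO10. It went from 329 ± 32.6 (SD, n = 3, as for all values of these lines below) with NCA to 519 ± 19.9 with ASO10 and 692 ± 11.7 with ASO2 in NGP (log2 differences 0.66 and 1.08, limma adjusted p 2.4e-07 and 5.01e-11). It went from 115 ± 4.23 to 229 ± 28.3 and 305 ± 41.3 for the libraries of SK-N-BE(2)c (0.98 and 1.39, adjusted p 6.46e-08 and 4.89e-11). Like SEC61A1 it was lower with ASO10 than with ASO2 (-0.42 and -0.41, adjusted p 0.000119 and 0.0039).

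The 16 other genes of the translocon and of signal recognition (SEC61 subunits and SEC61A2, the signal recognition particle and its receptor, and the translocon-associated proteins) moved in both directions. Against NCA, ASO10 raised 6 and lowered 5 in NGP cells and raised 4 and lowered 6 in SK-N-BE(2)c by limma's adjusted p under 0.05. Among all genes tested 26.8% rose and 27.6% fell in NGP, and 27.8% and 31.1% for SK-N-BE(2)c. The calls cover 68.75% and 62.5% of this list, against 54.4% and 58.9% of all genes. SRP54, the subunit that binds the signal sequence, fell with ASO10 from 759.7 ± 66.7 to 437 ± 29.4 in NGP cells and, for SK-N-BE(2)c, from 1282 ± 104 to 727 ± 94.3 (-0.80 and -0.82, adjusted p 9.65e-09 and 8.35e-10), and it also fell with ASO2 (-0.53 and -0.55). SSR2, a subunit of the translocon-associated complex, rose with ASO10 (0.71 and 0.59, adjusted p 5.85e-12 and 2.56e-10) and with ASO2 (0.57 and 0.76). None of these genes was lower with ASO10 than with ASO2 by 1 or more on the log2 scale in both lines.

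TRRAP (ENSG00000196367) had normalized counts of 752, 701 and 710 in NGP with ASO10, 1984, 2055 and 2094 with NCA and 2743, 2802 and 2734 with ASO2. The SK-N-BE(2)c libraries had 1161, 983 and 1018 with ASO10, 2757, 2587 and 2332 with NCA and 3679, 3812 and 3923 with ASO2. The NCA libraries of SK-N-BE(2)c had a mean of 2559 ± 214 (SD, n = 3), and their lowest value was above the highest ASO10 value. ASO10 was at 35.3% and 41.2% of NCA, and at 26.1% and 27.7% of ASO2, in NGP cells and SK-N-BE(2)c.

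Of 29 other subunits of the acetyltransferase complexes that hold TRRAP, ASO10 raised 7 and lowered 7 against NCA in NGP (48.28% called, against 54.4% of all genes) and raised 13 and lowered 7 in SK-N-BE(2)c (68.97%, against 58.9%). Against ASO2, 16 were lower and 4 higher with ASO10 in NGP (68.97% called, against 58.6% of all genes), and 15 lower and 4 higher in SK-N-BE(2)c (65.52%, against 65.4%). Lower calls made up 30.6% and higher calls 28% of all genes in NGP, and 34.6% and 30.8% for SK-N-BE(2)c. The medians of ASO10 minus ASO2 over the list were -0.22 and -0.29, against -0.0225 and -0.0346 over all genes tested. Over genes with a mean of at least 500 the medians were -0.0903 and -0.138. SUPT20H, a structural subunit of SAGA, had the same order of groups as TRRAP. It went from 962 ± 22.6 with NCA to 509.8 ± 37.6 with ASO10 and 1251 ± 67.9 with ASO2 in NGP (-0.92 and 0.38, adjusted p 5.82e-11 and 6.14e-05). It went from 918 ± 42.5 to 446 ± 23.9 and 1127 ± 31.2 for the libraries of SK-N-BE(2)c (-1.04 and 0.30, adjusted p 5.65e-13 and 0.000483).

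Other subunits did not share that order. SUPT3H, also of SAGA, fell with ASO10 (-1.20 and -1.34, adjusted p 1.12e-05 and 0.000504) and with ASO2 (-0.98 and -1.63), from 91 ± 14.7 normalized counts with NCA in NGP cells and 55 ± 6.24 in SK-N-BE(2)c. ING3, a chromatin reader of the TIP60 complex, rose with ASO10 (0.82 and 0.96, adjusted p 2.82e-09 and 1.98e-09) and with ASO2 (0.80 and 1.25). VPS72, a subunit of TIP60 and SRCAP that handles the histone H2A.Z, was far higher with ASO10 than with ASO2 and was singled out after its values were seen. It was at 1892 ± 89.3 with ASO10, 1760.1 ± 114 with NCA and 553 ± 36.8 with ASO2 in NGP, and at 1516 ± 37.1, 1305 ± 66.4 and 427 ± 19.7 in SK-N-BE(2)c, so that ASO10 minus ASO2 was 1.77 and 1.83 (adjusted p 7.61e-17 and 7.4e-19).

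The other genes of the PIKK family and the factors that mature its members (8 genes) moved in both directions. Against ASO2, 4 were higher and 1 lower with ASO10 in NGP (62.5% called, against 58.6% of all genes), and 6 higher and 2 lower in SK-N-BE(2)c (100%, against 65.4%), with medians of 0.17 and 0.26. ATM, a kinase of the response to DNA breaks, was at 1025 ± 61.3 with ASO10, 765 ± 95.2 with NCA and 541 ± 15.3 with ASO2 in NGP, and at 1667 ± 75.5, 1344 ± 56 and 819 ± 41 in SK-N-BE(2)c, which is the reverse of the order of TRRAP. ASO10 minus ASO2 was 0.92 and 1.02 (adjusted p 3.95e-10 and 5.16e-14). PRKDC, a kinase of DNA end joining, rose with ASO10 (0.63 and 0.50, adjusted p 3.89e-08 and 2.69e-09), and ATR, a kinase of the response to replication stress, fell (-0.48 and -0.30, adjusted p 1.57e-05 and 0.000613). With ASO2 against NCA, PRKDC rose too (0.47 and 0.27, adjusted p 3.34e-06 and 5.52e-05). ATR fell further with ASO2 than with ASO10 (-0.66 and -0.58, adjusted p 1.07e-07 and 2.81e-08 against NCA). SMG1, the kinase of nonsense-mediated decay, was singled out after its values were seen. It was lower with ASO10 than with ASO2 (-0.79 and -1.06, adjusted p 2.44e-12 and 3.92e-16), while its ASO10 minus NCA was 0.10 in NGP (adjusted p 0.101, but 0.16 and 0.00599 without NCA replicate 3) and -0.34 in SK-N-BE(2)c (adjusted p 3.27e-06).

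EIF4G2 (ENSG00000110321) had the highest counts of the 5 genes. It had normalized counts of 7521, 7020 and 8292 in NGP with ASO10, 19002, 18998 and 20035 with NCA and 24268, 23026 and 23836 with ASO2. Values for the SK-N-BE(2)c libraries were 7619, 6361 and 6945 with ASO10, 15743, 16253 and 17138 with NCA and 21329, 20933 and 22565 with ASO2. This gene had the smallest step from NCA to ASO2 of the 5 in both lines, and its groups were still apart in both. ASO10 was at 39.3% and 42.6% of NCA and at 32.1% and 32.3% of ASO2.

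The relatives of EIF4G2 went other ways. EIF4G1, the main scaffold of cap-dependent initiation, rose from 4474 ± 278 with NCA to 7385 ± 269 with ASO10 and 8672 ± 127 with ASO2 in NGP (0.72 and 0.96, adjusted p 5.85e-12 and 4.81e-14). It rose from 9407 ± 551 to 15268 ± 601 and 17966 ± 374 for the libraries of SK-N-BE(2)c (0.70 and 0.93, adjusted p 1.81e-12 and 2.97e-15). EIF4G3, a further paralogue, fell with ASO10 (-0.53 and -0.37, adjusted p 3.66e-07 and 8.75e-05) and with ASO2 (-0.72 and -0.80).

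Over the 14 other eIF4 factors and their regulators, ASO10 against NCA gave 4 higher and 4 lower in NGP (57.14% called, against 54.4% of all genes) and 6 higher and 4 lower in SK-N-BE(2)c (71.43%, against 58.9%). EIF4A2, a helicase of the initiation complex, rose with ASO10 (0.45 and 0.49, adjusted p 4.7e-08 and 1.05e-09) and with ASO2 (0.98 and 1.17). EIF4E3, a cap-binding relative of eIF4E with few reads here (20.2 ± 8.08 with ASO10 against 42 ± 3.7 with NCA in NGP), fell with ASO10 (-1.08 and -1.34, adjusted p 0.00122 and 2.65e-07). Its ASO2 minus NCA was -0.20 and -0.77 (adjusted p 0.53 and 0.000439). The list's median of ASO10 minus NCA was 0.0075 and 0.079.

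ABL1 (ENSG00000097007) had normalized counts of 733, 771 and 721 in NGP with ASO10, 1583, 1638 and 1575 with NCA and 2423, 2506 and 2542 with ASO2. For SK-N-BE(2)c its values were 1388, 1341 and 1398 with ASO10, 2418, 2334 and 2059 with NCA and 4745, 4678 and 4607 with ASO2. In this line the step from NCA to ASO2 was the larger, with ASO2 at 2.06-fold of NCA and ASO10 at 60.6% of it. In NGP the values were 1.56-fold and 46.4%. Against ASO2, ASO10 was at 29.8% in NGP cells and 29.4% in SK-N-BE(2)c.

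ABL2, the closest relative of ABL1 among the kinases, fell with both ASOs and was lowest with ASO10. It went from 899 ± 134 with NCA to 382 ± 43.1 with ASO2 and 243 ± 16.8 with ASO10 in NGP (-1.23 and -1.88, adjusted p 1.93e-10 and 9.66e-14). It went from 1110.4 ± 11.8 to 461 ± 14.6 and 327 ± 52.4 for the libraries of SK-N-BE(2)c (-1.27 and -1.77, adjusted p 6.12e-13 and 1.65e-15). ASO10 minus ASO2 was -0.65 and -0.51 (adjusted p 5.08e-06 and 1.27e-05).

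Among 13 relatives, regulators and substrates of ABL1, ASO10 against NCA raised 5 and lowered 4 in NGP (69.23% called, against 54.4% of all genes) and raised 3 and lowered 4 in SK-N-BE(2)c (53.85%, against 58.9%). CBL, a ubiquitin ligase that acts on tyrosine kinases, had the order of ABL1. It was at 389 ± 33.6 with ASO10, 628 ± 20.1 with NCA and 954 ± 44.2 with ASO2 in NGP, and at 1017 ± 70.4, 1646 ± 145 and 2572 ± 83 in SK-N-BE(2)c. ASO10 minus NCA was -0.69 and -0.69 (adjusted p 4.25e-08 and 6.93e-10), and ASO2 minus NCA was 0.60 and 0.65 (adjusted p 3.49e-07 and 1.4e-09). RIN1, which binds ABL kinases and raises their activity, rose with ASO10 (1.74 and 0.71, adjusted p 1.47e-07 and 9.44e-05), from 30.8 ± 6.46 to 104 ± 6.24 in NGP cells and, for SK-N-BE(2)c, from 107 ± 18.5 to 174 ± 13. Its ASO2 minus NCA was 0.54 and 0.11 (adjusted p 0.0318 and 0.492).

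MAP1LC3B (ENSG00000140941) had the largest difference of the 5. Its normalized counts were 189, 172 and 212 in NGP with ASO10, 726, 678 and 680 with NCA and 1245, 1128 and 1190 with ASO2. They were 116, 135 and 114 with ASO10, 502, 556 and 510 with NCA and 1001, 1022 and 957 with ASO2 for the SK-N-BE(2)c libraries. The highest ASO10 library was far below the lowest ASO2 library in each line, and ASO10 was at 16.1% of ASO2 in NGP cells and 12.3% in SK-N-BE(2)c. Against NCA it was at 27.5% and 23.3%.

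The other ATG8 proteins differed among themselves. GABARAPL1 rose with ASO2, from 81.6 ± 8.75 with NCA to 192 ± 31.9 in NGP cells and, for SK-N-BE(2)c, from 56.9 ± 13.8 to 132 ± 15.1 (1.21 and 1.22, adjusted p 1.58e-07 and 6.55e-07), and with ASO10 it was at 81 ± 5.31 and 64.7 ± 0.952 (adjusted p 0.974 and 0.314 against NCA). MAP1LC3A was at 31.4 ± 10 with ASO2, 62.9 ± 17.8 with NCA and 74.2 ± 15.8 with ASO10 in NGP, and at 18 ± 9.11, 60.2 ± 8.13 and 71.7 ± 14.7 in SK-N-BE(2)c. It fell with ASO2 (-0.99 and -1.81, adjusted p 0.000903 and 2.26e-06), and its ASO10 minus ASO2 was positive (1.23 and 2.05, adjusted p 7.84e-05 and 3.38e-07), the opposite of MAP1LC3B. GABARAP was lower with ASO10 than with ASO2 in NGP (-0.83, adjusted p 3.27e-06) and, less firmly, for SK-N-BE(2)c (-0.56, adjusted p 0.0172, but 0.193 without ASO10 replicate 1, 0.0822 without ASO2 replicate 2 and 0.0551 on rescaling to the same total). GABARAPL2, at 1154 ± 33.7 with NCA in NGP cells and 782 ± 62.3 in SK-N-BE(2)c, had an ASO10 minus ASO2 of -0.11 and -0.15 (adjusted p 0.122 and 0.0601, the latter 0.0446 without NCA replicate 3). MAP1LC3B2, a near-identical copy of MAP1LC3B, was listed at 0 in all NGP and SK-N-BE(2)c libraries, and how reads that match both were assigned is not given in the sources used here.

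**Figure D3:**
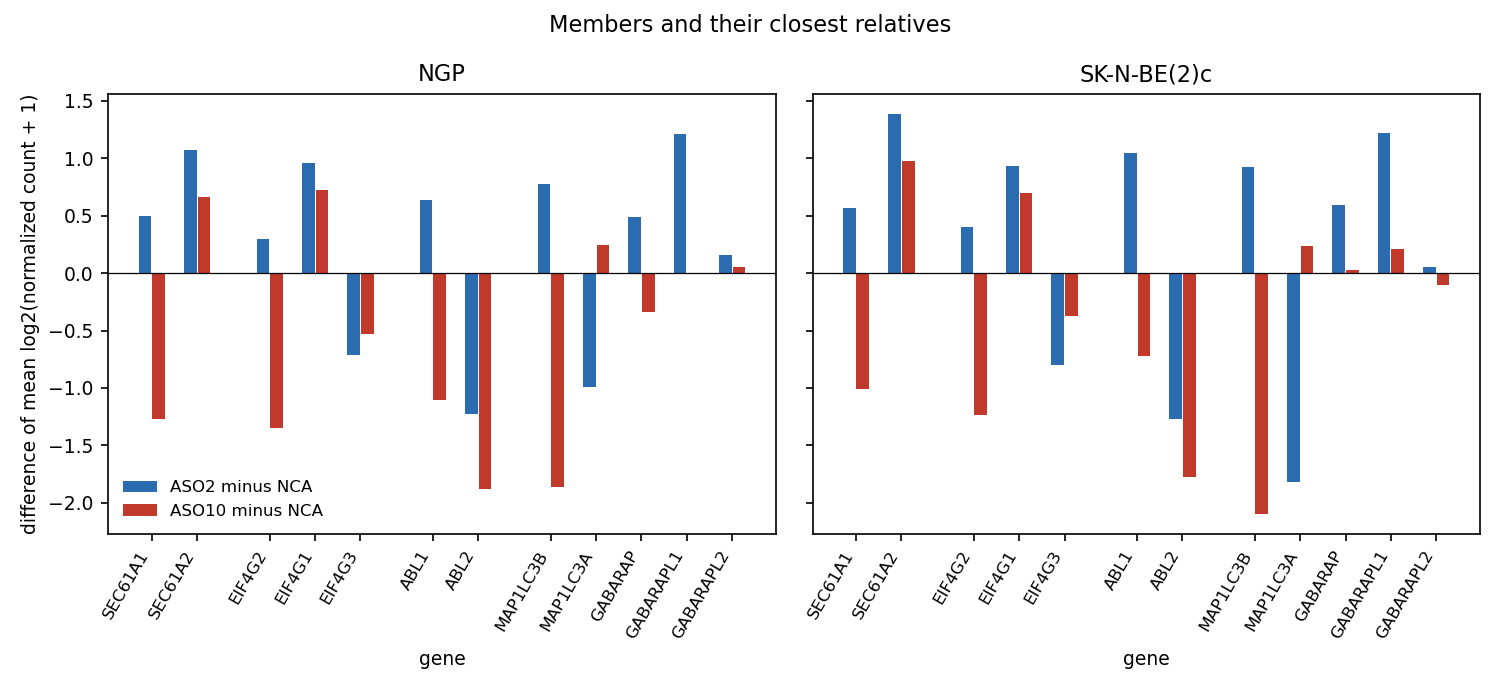
Difference of mean log2(normalized count + 1) from NCA with ASO2 (blue) and ASO10 (red) for 4 of the 5 genes, each followed by its closest relatives, in NGP cells and SK-N-BE(2)c. The 4 genes point up with ASO2 and down with ASO10, SEC61A2 and EIF4G1 point up with both, and EIF4G3 and ABL2 point down with both.

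Of the 24 genes of the ATG8 family, its conjugation system and its receptors, 22 were tested in these lines. ASO10 against NCA raised 2 and lowered 9 in NGP (50% called, against 54.4% of all genes) and raised 7 and lowered 7 in SK-N-BE(2)c (63.64%, against 58.9%). Of all genes 27.6% and 31.1% were lower. ATG10, an enzyme of the conjugation system, fell with ASO10 (-1.79 and -0.74, adjusted p 8.6e-06 and 0.0102), from 49.8 ± 12.4 to 14 ± 4.93 in NGP cells and, for SK-N-BE(2)c, from 50 ± 10.9 to 29.2 ± 3.05, where the call was lost without NCA replicate 2 (adjusted p 0.0835). ATG7, an enzyme of the same system, had differences of -0.43 and -0.47 (adjusted p 0.00315 and 0.0224), and in SK-N-BE(2)c it was not called by DESeq2 (adjusted p 0.0581), or by limma without ASO10 replicate 2 (adjusted p 0.157) or NCA replicate 3 (adjusted p 0.123). ATG4B, the protease that prepares ATG8 proteins, rose with ASO10 (0.42 and 0.45, adjusted p 5.3e-05 and 4.25e-07).

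Over the 6 lists together, 102 of 104 genes were tested in NGP cells and SK-N-BE(2)c. With ASO10 against ASO2, 22 were higher and 47 lower in NGP (67.65% called, against 58.6% of all genes) and 28 higher and 47 lower in SK-N-BE(2)c (73.53%, against 65.4%), with medians of -0.14 and -0.16. Lower calls made up 30.6% and 34.6% of all genes, and the medians over genes with a mean of at least 500 were -0.0903 and -0.138. Differences of 1 or more in size in both lines were seen for 5 of the list genes: CBL, GABARAPL1 and SUPT20H lower, and MAP1LC3A and VPS72 higher with ASO10. With ASO2 against NCA, 45 were higher and 26 lower in NGP (69.61%, against 58.7% of all genes) and 55 higher and 30 lower in SK-N-BE(2)c (83.33%, against 67%). All genes split into 30.6% higher and 28.1% lower in NGP, and 33.6% and 33.4% for SK-N-BE(2)c. After rescaling every library to the same total, the median of all genes for ASO2 minus NCA in SK-N-BE(2)c moved from -0.0161 to -0.1520, so small changes with ASO2 there depend on the scaling.

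**Figure D4:**
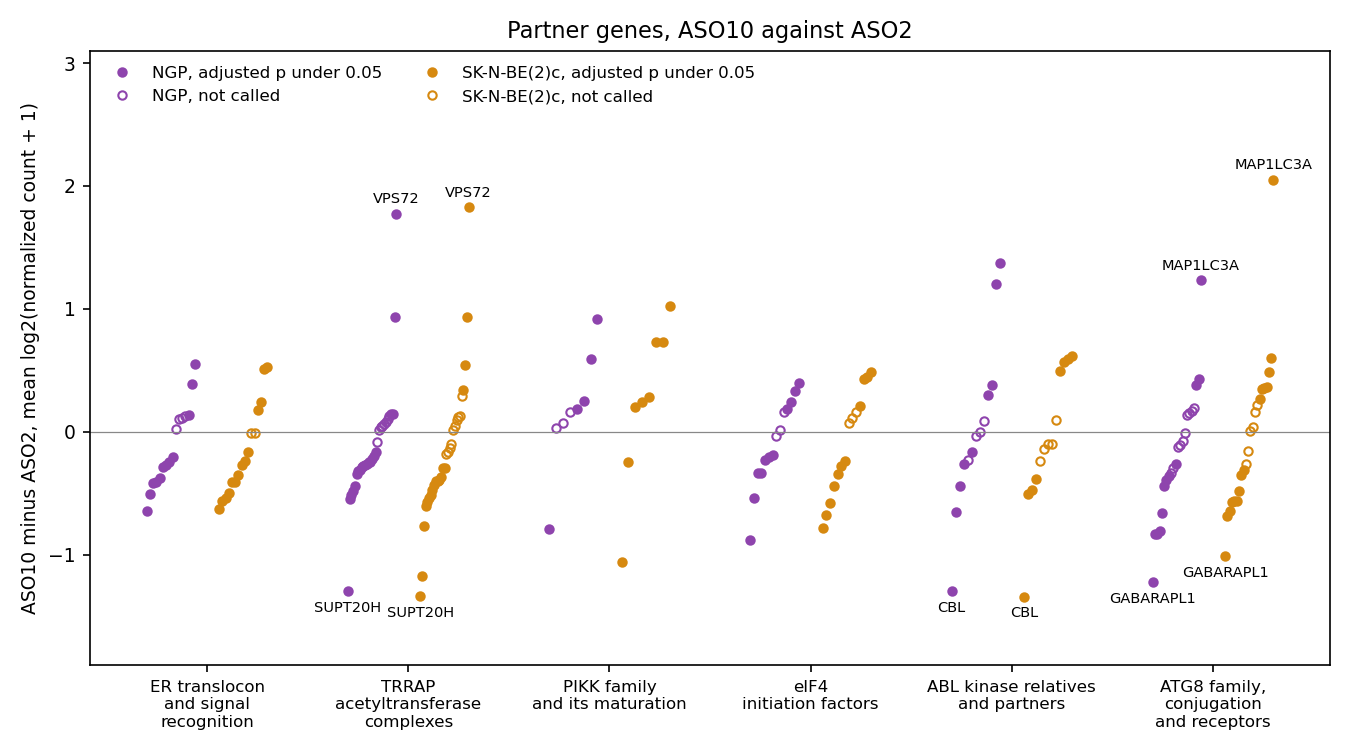
ASO10 minus ASO2 (difference of mean log2(normalized count + 1)) for each tested gene of the 6 partner lists in NGP (purple) and SK-N-BE(2)c (orange), with filled points at an adjusted p under 0.05. SUPT20H, CBL and GABARAPL1 lie below -1 in both lines and VPS72 and MAP1LC3A above 1.

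IMR32 cells had ASO2 in common with the other lines and had no ASO10. There, all 5 genes were higher with ASO2 than with NCA by limma's adjusted p under 0.05, where 17.6% of all 17309 genes tested were higher. The differences ran from 0.17 (TRRAP) to 0.34 (ABL1), with a median of 0.27 against -0.0008 over all genes. With ASO1, 1 of the 5 was higher than with NCA (13.6% of all genes), and 4 of the 5 were lower with ASO1 than with ASO2 (12.8% of all genes). No gene of the 5 was called lower with ASO1 or ASO2 than with NCA. Each was also compared by a two-sided exact permutation test of 4 against 4 libraries, whose smallest p is 0.0286, with Benjamini-Hochberg adjustment over the 15 tests.

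SEC61A1 in IMR32 had normalized counts of 1714, 1745, 1664 and 1793 with ASO2, 1449, 1421, 1410 and 1439 with NCA and 1554, 1529, 1434 and 1489 with ASO1. The ASO2 libraries lay above all the others. ASO2 minus NCA was 0.27 ± 0.0439 (SE, limma adjusted p 0.000101, exact p 0.0286, 0.0476 after adjustment), and ASO1 minus ASO2 was -0.20 (adjusted p 0.00212). ASO1 and NCA overlapped (0.07, adjusted p 0.255).

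ABL1 had 1760, 1763, 1763 and 1732 with ASO2, 1476, 1354, 1388 and 1339 with NCA and 1547, 1418, 1398 and 1444 with ASO1. Here too the ASO2 libraries lay apart from both other groups. ASO2 minus NCA was 0.34 ± 0.0467 (adjusted p 2e-05, exact p 0.0286, 0.0476 after adjustment), the largest of the 5, and ASO1 minus ASO2 was -0.27 (adjusted p 0.000247). ASO1 minus NCA was 0.063 (adjusted p 0.343).

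TRRAP had 3607, 3778, 3787 and 3733 with ASO2, 3188, 3255, 3387 and 3381 with NCA and 3434, 3405, 3479 and 3408 with ASO1. The 3 groups did not overlap, but the gaps were small. ASO2 minus NCA was 0.17 ± 0.0404 (adjusted p 0.00255, exact p 0.0286, 0.0476 after adjustment), and ASO1 minus NCA was 0.056 (limma adjusted p 0.335, exact p 0.0286). ASO1 minus ASO2, at -0.12 (adjusted p 0.0399), was no longer called by edgeR (adjusted p 0.0605), with no filter on low values (0.129), after rescaling to the same total (-0.064, adjusted p 0.288) or without any 1 of 9 of the 12 libraries, all but ASO1 replicate 1, ASO2 replicate 1 and NCA replicate 1 (adjusted p 0.0514 to 0.0969).

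MAP1LC3B had 370, 332, 352 and 289 with ASO2, 267, 268, 257 and 278 with NCA and 314, 299, 267 and 262 with ASO1. It had the fewest reads of the 5 in this line, and its lowest ASO2 library was close to the highest NCA library. ASO2 minus NCA was 0.32 ± 0.0796 (adjusted p 0.004, exact p 0.0286, 0.0476 after adjustment). ASO1 and ASO2 overlapped, and their difference of -0.23 (adjusted p 0.0414) was lost after the same rescaling (adjusted p 0.0994), with no filter (0.0693) and without any 1 of 8 libraries, ASO1 replicates 2, 3 and 4, ASO2 replicates 1, 2 and 3 and NCA replicates 2 and 4 (adjusted p 0.0504 to 0.13).

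EIF4G2 had 11859, 11141, 10420 and 11340 with ASO2, 10618, 9752, 9475 and 9514 with NCA and 12862, 10693, 10965 and 11223 with ASO1. It was the gene of the 5 that rose with ASO1 (0.21 ± 0.0586, adjusted p 0.00885, exact p 0.0286). ASO2 minus NCA was 0.19 (adjusted p 0.0193), with overlapping libraries and an exact p of 0.0571. That call was lost without ASO2 replicate 1 (adjusted p 0.051) or without NCA replicate 2, 3 or 4 (adjusted p 0.0505, 0.0643 and 0.0623). ASO1 and ASO2 overlapped (0.029, adjusted p 0.771).

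**Figure D5:**
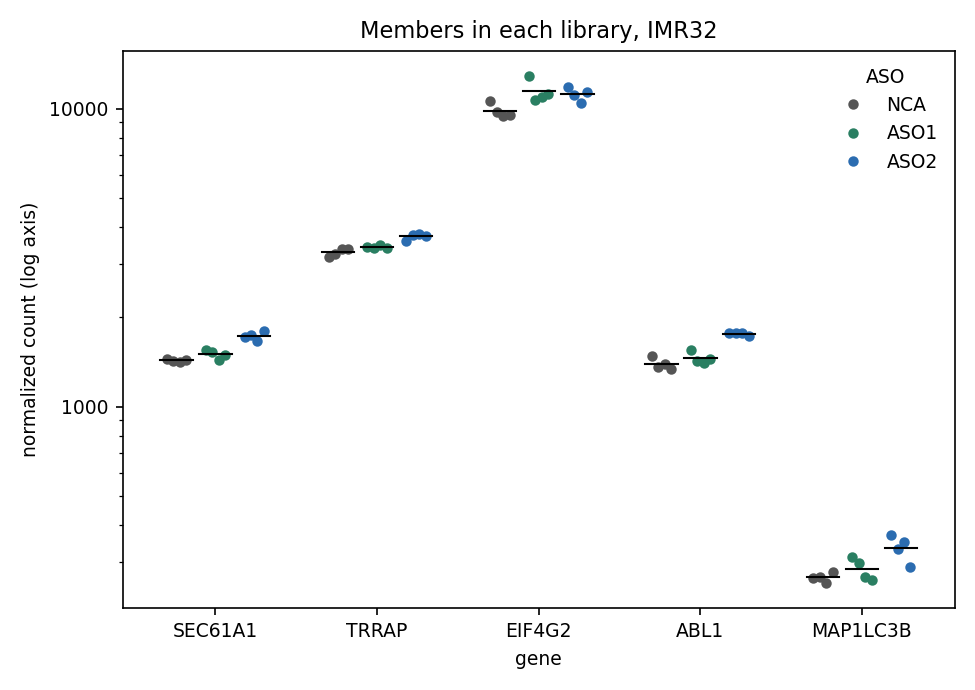
Normalized count (log axis) of the 5 genes in each IMR32 library, with 4 libraries per ASO as points and their mean as a black line. The ASO2 libraries lie above the NCA libraries for SEC61A1, TRRAP, ABL1 and MAP1LC3B, and overlap with them for EIF4G2.

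The partners and relatives were tested in IMR32 as well. Of 101 list genes tested there, 33 were higher and 11 lower with ASO2 than with NCA (17.6% and 14.8% of all genes), and 26 higher and 13 lower with ASO1 than with NCA (13.6% and 14.4%). Over the alternatives other than leaving out libraries, the list genes called in either direction ran from 41 to 65 with ASO2 and from 32 to 58 with ASO1. With ASO1 against ASO2, 7 were higher and 22 lower (9.17% and 12.8%), 29 in all, which became 45 with the replicate number as a block. Against NCA, ASO2 gave differences of 0.26 for SEC61A2 (adjusted p 0.0147, but 0.0657 without ASO2 replicate 4), 0.24 for EIF4G1 (0.000661), 0.29 for CBL (0.000983), -0.31 for ABL2 (9.62e-05) and -0.23 for EIF4G3 (0.00136). SUPT20H, which shared the order of the 5 genes in the other lines, was at 1041 ± 20.7 with ASO2 and 1061 ± 39.9 (SD, n = 4) with NCA (-0.026, limma adjusted p 0.719). GABARAPL1 was under the filter in IMR32.

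The genes beside the 5 on the chromosome were taken from GENCODE release 29. Over the neighbours tested, ASO10 against NCA gave 7 higher and 3 lower of 16 in NGP cells and 7 higher and 4 lower of 18 in SK-N-BE(2)c, with medians of 0.16 and 0.069. Of all genes 26.8% were higher and 27.6% lower in NGP, and 27.8% and 31.1% for SK-N-BE(2)c. RUVBL1, a helicase of the TIP60 complex that overlaps SEC61A1 on the opposite strand, was at 1395 ± 74.5 with ASO10 and 1536 ± 64.8 with NCA in NGP (-0.14, adjusted p 0.0574, but 0.0445 on rescaling, 0.0259 without ASO10 replicate 3 and 0.0224 without NCA replicate 3) and at 3472 ± 146 and 3362 ± 124 in SK-N-BE(2)c (0.046, adjusted p 0.475). EEFSEC, the next tested gene downstream of SEC61A1 and on its strand, fell with ASO10 (-0.73 and -0.70, adjusted p 0.000158 and 1.86e-06) and with ASO2 (-0.81 and -0.82).

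Genes that overlap or closely flank TRRAP, EIF4G2, MAP1LC3B and ABL1 were tested in the same way. SMURF1, a ubiquitin ligase gene that overlaps TRRAP on the opposite strand, rose from 485 ± 45.5 with NCA to 626 ± 13.4 with ASO10 and 783 ± 43.3 with ASO2 in NGP (0.37 and 0.69, adjusted p 0.000272 and 4.29e-08), and the same order held for SK-N-BE(2)c, from 468 ± 42.2 to 584 ± 29.8 and 764 ± 26.1. CTR9, a subunit of the PAF1 elongation complex that overlaps EIF4G2 on the opposite strand, was at 1396 ± 18.7 with ASO10 and 1276 ± 28.1 with NCA in NGP (0.13, adjusted p 0.0553, but 0.0331 by edgeR, 0.0247 by DESeq2, 0.0476 over genes with a mean of at least 50 and 0.0326 without NCA replicate 3) and at 963 ± 45.3 and 1037 ± 65.5 in SK-N-BE(2)c (-0.11, adjusted p 0.174). FBXO31, a ubiquitin ligase subunit that overlaps MAP1LC3B on the opposite strand, rose with ASO10 from 555 ± 35.7 to 751 ± 64.3 in NGP cells and, for SK-N-BE(2)c, from 468 ± 8.31 to 721 ± 67.8 (0.44 and 0.62, adjusted p 2.93e-05 and 4.92e-08). ZCCHC14, 1.5 kb downstream of MAP1LC3B on the opposite strand, rose as well (0.57 and 0.30, adjusted p 1.4e-07 and 0.000169). EXOSC2, an exosome subunit 9.1 kb upstream of ABL1 on its strand, rose with ASO10 in NGP (0.20, adjusted p 0.00602) and was at 0.084 in SK-N-BE(2)c (adjusted p 0.22).

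With ASO10 against ASO2, no tested neighbour was lower by 1 or more, RNF141 included. The lowest such difference was -0.81 for NGP cells and -0.93 for SK-N-BE(2)c. RNF141, 255.8 kb downstream of EIF4G2 and on its strand, was the tested neighbour that fell by more than 1 with ASO10 against NCA. It went from 173 ± 1.9 with NCA to 70.1 ± 6.17 with ASO10 in NGP cells and, for SK-N-BE(2)c, from 133 ± 21.4 to 51.5 ± 1.64 (-1.30 and -1.33, adjusted p 1e-08 and 4.59e-08). ZBED5, 3 kb upstream of EIF4G2 on its strand, was at 0.29 in NGP (adjusted p 0.00252) and -0.46 in SK-N-BE(2)c (adjusted p 5.51e-05). A processed pseudogene inside TRRAP on the opposite strand (ENSG00000238109), singled out after its values were seen, had 21 ± 5.39 normalized counts with ASO10 and 2.48 ± 0.374 with NCA in NGP, where it was under the filter, and 19.7 ± 4.35 and 2.68 ± 1.17 in SK-N-BE(2)c (2.51, adjusted p 4.38e-05). Whether counting used strand is not given in the sources used here, so reads of overlapping genes on opposite strands may not be told apart.

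The 5 genes varied together across 18 libraries, those of NGP and of SK-N-BE(2)c. After centring each line, Pearson's r between pairs of them ran from 0.9428 to 0.9955. After centring each group, r ran from -0.4160 to 0.5634, so the likeness lies between groups. These values are a description of libraries that share their groups and their size factors.

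Among 9006 genes with a mean of at least 100 in both tables, those with the highest r to the mean of the 5 included METTL13 (0.9959), RNF34, ADIPOR2, HNRNPH1, RNF220, SLC25A3, MED28, RNF7 and SUPT20H (0.9895). RNF34, a ubiquitin ligase, had mean normalized counts of 2026 with ASO10, 4861 with NCA and 6339.9 with ASO2 in NGP and 430.1, 932 and 1439.7 in SK-N-BE(2)c. HNRNPH1, an RNA-binding protein of splicing, had 5444, 9275 and 11250 in NGP and 4850.4, 8429 and 10836 in SK-N-BE(2)c. For single genes of the 5, the closest included METTL13 for SEC61A1 (r 0.9938), NUDT21, a factor of messenger RNA cleavage, for EIF4G2 (0.9975), PHF8 for ABL1 (0.9943) and SUPT20H for MAP1LC3B (0.9918). GSK3B, a kinase of WNT and insulin signalling, was the third for TRRAP (0.9925), at 772 with ASO10, 1732 with NCA and 2287 with ASO2 in NGP.

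Likeness was measured over the NGP and SK-N-BE(2)c tables, so the 18 genes it named were looked for in IMR32. There, 17 of them had an entry, and all 17 passed the filter. With ASO2 against NCA, 12 of the 17 were higher and 0 lower (17.6% and 14.8% of all genes), with a median of 0.21, and 8 to 14 were higher when single libraries were left out, 8 of them without NCA replicate 3. With ASO1 against NCA, 4 were higher and 5 lower (13.6% and 14.4% of all genes), and with ASO1 against ASO2, 1 was higher and 8 lower (9.17% and 12.8%; 6 to 10 lower when single libraries were left out). The 4 higher with ASO1 than with NCA became 2 without ASO1 replicate 1 or 2 or NCA replicate 2 or 3. They became 3 without NCA replicate 4 and with no filter on low values, and 5 by edgeR and without ASO2 replicate 1. They became 7 without NCA replicate 1, on rescaling and with the replicate number as a block. METTL13 and RNF7 were the ones lost without NCA replicate 2 (adjusted p 0.093 and 0.0526), and without NCA replicate 3 (0.117 and 0.0705). HNRNPH1 had a difference of -0.27 with ASO1 (adjusted p 9.77e-05) and -0.0026 with ASO2 (adjusted p 0.974).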

How the data were processed

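RNA of 30 libraries in 9 groups was sequenced, and group labels were taken from the sample titles. Per the labels, the authors deposited 3 tables of normalized counts, a signal in which each gene's count is divided by a size factor of its library. Whole reads were recovered in 100% of the values (within 0.1). The IMR32 table was scaled alone and the other tables together, so levels were compared within a table only. Per the submitters' processing notes, FastQC 0.11.8, cutadapt 1.18, STAR 2.6.0, HTSeq 0.6.1, DESeq2 1.42.0 and hg19 were used, with no order given. There were 0 unused sample columns. In IMR32, 174 entries that name no gene (0.1719% of the summed values) were left out. Symbols were found for 89.8% of the gene IDs in the NGP and SK-N-BE(2)c tables.

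Differences were fitted with limma 3.58.1 in R 4.3.3 on log2(normalized count + 1), with a mean per group, a spread that follows the level (trend) and all groups of a table in a single fit, over genes with a mean of at least 10 (17309 in IMR32, 14440 in NGP, 13556 in SK-N-BE(2)c). P-values were Benjamini-Hochberg adjusted over all of these, and a gene was called under 0.05. A difference named "A against B" or "A minus B" is A less B. The pseudocount of 1 understates the change of genes with few reads. Fits were checked on simulated data.

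The 5 genes and the 6 lists of partners were chosen with earlier results of these data known. Named genes were the 5, their close relatives, the list genes called the same way with ASO10 against NCA in both lines, without overlap of groups, with the largest mean size (up to 3 a list), their chromosomal neighbours and the 10 genes most like their mean, with the 3 most like each of them. Alternatives were other pseudocounts (0.5, 8), a minimum mean of 50 or none, rescaling to the same total, edgeR 4.0.16 and DESeq2 1.42.0 on recovered reads, a replicate block and leaving out each library. Fibroblast, immune and other marker sums are totals of normalized counts. NESPR was not analysed here, and some genes that the rule names are not reported here. Promoters are from RefSeq (GRCh38.p14), and transcripts and neighbours from GENCODE release 29.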

Additional observations from a re-analysis of the deposited data

Results flagged for a closer look

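ABL1 in IMR32 had 1 ASO2 library apart from the others, at 1732.37 normalized counts where the other 3 lay between 1760 and 1763. Its gap to the nearest other library, as a share of the group's range, exceeds Dixon's critical value for 4 libraries. In all, 15 groups were checked, and chance alone marks about 1 in 20 groups.

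SRP54, the signal sequence subunit of the signal recognition particle, was higher with ASO2 than with NCA in IMR32 (0.2433 on the log2 scale) and lower in NGP (-0.5269) as well as SK-N-BE(2)c (-0.5549), with every library on its side. SSR2, a subunit of the translocon-associated complex, had an ASO10 minus ASO2 of 0.1366 in NGP cells but -0.168 in SK-N-BE(2)c. Its NGP call was lost without ASO10 replicate 1 or 2 or ASO2 replicate 1 or 2 (limma adjusted p 0.0569 to 0.0963), and its SK-N-BE(2)c call without ASO2 replicate 3 (0.0624) and on rescaling (-0.056, 0.357). ATG10, of the list of the ATG8 family, conjugation and receptors, had -0.8333 in NGP cells but 0.2145 in SK-N-BE(2)c for the same comparison. The NGP value was called, but not by DESeq2 (adjusted p 0.0621) or without ASO10 replicate 1 (-0.5802, limma adjusted p 0.0941), and the other was not called (0.448). ZBED5, upstream of EIF4G2, had an ASO10 minus NCA of 0.2878 in NGP cells but -0.4603 in SK-N-BE(2)c. For each of these the differences had opposite signs in different lines, without overlap of libraries, and the differences between lines were not tested.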

How the results depend on the processing

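The order of the 5 genes in NGP and SK-N-BE(2)c kept its direction under every alternative run, and no called difference reversed. The uncalled ASO1 minus ASO2 of EIF4G2 in IMR32 (0.0291) ran from -0.0287 to 0.0833. Rescaling every library to the same total moved their median of ASO2 minus NCA to 0.4252 in NGP (from 0.4952) and to 0.4376 for SK-N-BE(2)c (from 0.575), and their median of ASO10 minus ASO2 from -1.7645 to -1.705 and from -1.7649 to -1.653. Leaving out single libraries moved the NGP median of ASO10 minus NCA between -1.412 and -1.292. In IMR32, 4 of the 5 genes were called lower with ASO1 than with ASO2, which became 2 after rescaling and 2 with no filter on low values (2 to 4 when single libraries were left out). For ASO2 against NCA, 4 to 5 were called when single libraries were left out. Except for the rescaling, whose construction moves all genes alike, the causes were not tested. Of 561 comparisons of single genes, 54 lost their call under at least 1 alternative and 36 gained one. Depth limits genes with few reads the most, such as MAP1LC3A and ATG10, whose group means were under 100 normalized counts in NGP and SK-N-BE(2)c.

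With the replicate number as a replicate block, the partner genes called in IMR32 for ASO1 against ASO2 went from 29 to 45 (23 to 33 when single libraries were left out), and no other such count over the 5 genes or the 6 lists together moved by over 1.5 times. The IMR32 partner count for ASO1 against NCA, 39 in the main fit, ran from 32 to 58 over the alternatives other than leaving out libraries. For ASO2 against NCA it was 44 and ran from 41 to 65. For the genes most like the 5, those higher with ASO1 than with NCA in IMR32 went from 4 to 7 with the block and on rescaling. The labels do not say what a number stands for, and same-numbered libraries did not deviate together in every pair: r ran from 0.055 to 0.318 for ASO1 and NCA in IMR32 and from -0.0646 to 0.0364 for ASO10 and ASO2 in NGP. In IMR32, 6 of 8 libraries of ASO1 and NCA correlated best with their own number, and in NGP 2 of 6 of ASO10 and ASO2.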
